A study of Mus musculus with 12 samples.

Results

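The cytosolic ribosomal protein genes of the mouse pancreas are described here across 12 expression arrays. Members were the annotation rows with exactly 1 gene symbol that begins with Rpl or Rps and goes on with a number, an a, or a p and a number. Pseudogenes marked -ps and the Rps6k kinases were left out, and the row with the highest mean over the 12 arrays stood for each gene. The rule found 45 of 30145 genes: 18 proteins of the large, 60S subunit, 15 of the small, 40S subunit and 12 relatives, which are paralogs, retrocopies or partner genes that share the name. The rule used no difference between the groups.

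All samples were pancreas of mice aged 6 months. The control group held 6 samples with the genotype Pdx1/Cre, and the HuR group held 6 samples with the genotype Pdx1/Cre plus Traffic-HuR. Both groups therefore carried Pdx1/Cre, in which the promoter of Pdx1, a transcription factor of the developing and endocrine pancreas, serves to drive the Cre recombinase. HuR is an RNA-binding protein encoded by Elavl1, and the series examined pancreas in which it was overexpressed. The sources used here do not say whether each array came from a separate mouse, so p-values measure the spread between these samples, which may be technical. Values are log2 expression levels, 1 unit being a 2-fold step, and every difference is HuR minus control.

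Ribosomal proteins assemble with ribosomal RNA into the particle that translates messenger RNA, and most are needed in equal numbers in each ribosome. Their messages are abundant in every cell, and many begin with a C and a run of pyrimidines, the terminal oligopyrimidine or TOP motif, through which growth signals control their translation together. Exocrine pancreas, which makes and secretes digestive enzymes, is rich in ribosomes bound to the endoplasmic reticulum. Because the genes have many processed copies in the genome, a probe for a ribosomal protein can also detect a copy, and this holds for every level below.

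The annotation lists left much of the ribosome outside the rule. Of 77 canonical ribosomal protein symbols searched, 46 of the 60S and 31 of the 40S subunit, 33 were members. A further 37, among them Rpl3, Rpl5, Rps6 and the stalk proteins Rplp1 and Rplp2, stood only on rows with several symbols, and the other 7 had no row with a symbol of this kind. For 6 of the 45 members the row carried another chromosome than the gene. These were Rpl7a (row on chromosome 9, gene on 2), Rpl12 (10 and 2), Rpl27 (18 and 11), Rpl31 (7 and 1), Rpl35 (1 and 2) and Rpl41 (14 and 10). In comparison, the 2 chromosomes were the same in 99.7% of 30099 rows with 1 symbol.

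Start sites are shown first because the TOP motif is described for many of these messages. In the RefSeq promoter table (GRCm38.p6), 37 of the 45 members had an entry. The annotated start was a C followed by 4 bases each C or T in 5 of the 37 members (13.5%), against 813 of 27025 genes in the table (3.01%), counting a gene if any of its starts had the run on its own strand. These shares describe annotated starts, which were not measured here, and a run that begins some bases from the annotated start is not counted. The windows below run 15 bases before the start to 15 bases from it, written 5′ to 3′ on the strand of the gene. Capitals mark the run of 5 bases.
Rpl35 (chr2:39005117-39005146, minus strand): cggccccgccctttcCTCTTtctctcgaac
Rpl38 (chr11:114668565-114668594, plus strand): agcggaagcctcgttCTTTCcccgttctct
Rps10 (chr17:27635230-27635259, minus strand): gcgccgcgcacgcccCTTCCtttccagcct
Rps18 (chr17:33955651-33955680, minus strand): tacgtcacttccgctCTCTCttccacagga
Rpl32l (chr10:20208424-20208453, plus strand): aaataaaatgaccagCTTCTtccttggtgc

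For comparison, the annotated starts of 4 members to which the results return had no such run, and the capital marks the start base. Rps19 has 3 starts in the table, of which the first on the strand is shown.
Rps19 (chr7:24884577-24884606, plus strand): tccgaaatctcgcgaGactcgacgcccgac
Rplp0 (chr5:115559452-115559481, plus strand): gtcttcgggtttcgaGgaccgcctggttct
Rpl22l1 (chr3:28805493-28805522, plus strand): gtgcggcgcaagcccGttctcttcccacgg
Rpl10l (chr12:66284387-66284416, minus strand): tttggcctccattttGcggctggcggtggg

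The promoter windows of 300 bases, 250 before and 50 from the start, were also searched on both strands for CCGGAAG, a core recognised by ETS transcription factors such as GABP, and for AAGATGGC, a core recognised by YY1. The first stood in 16 of 37 members (43.2%), 14 of 28 canonical members and 2 of 9 relatives, against 9.93% of all genes in the table. The second stood in 2 of 37 members (5.41%), against 3.19% of all genes. The last 3 letters of the first core are the first 3 of the second, so matches can overlap, and a match describes letters only. In 3 members the first core lay within 15 bases of the start, on the strand of the gene, and capitals mark it.
Rpl11 (chr4:136053379-136053408, minus strand): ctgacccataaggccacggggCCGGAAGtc
Rpl31 (chr1:39367836-39367865, plus strand): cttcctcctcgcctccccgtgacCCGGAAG
Rps3a1 (chr3:86142654-86142683, minus strand): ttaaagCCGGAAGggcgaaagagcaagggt

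Across the series, array medians were 4.42 to 4.601, the correlation between arrays was 0.971 to 0.996 and background rows had a median of 3.74. Means of single background rows ran from 3.11 to 6.01. The number of arrays limits the precision. Elavl1, the gene of the transgene product, stood at 5.99 ± 0.12 (SD, n = 6) in control, within the span of background row means. In HuR samples it stood at 6.23 ± 0.14 (SD, n = 6). Its difference was 0.24 (SE 0.08; limma adjusted p = 0.878; exact permutation p = 0.0108), and 5 of 6 HuR arrays lay above every control. Whether its probes lie in the transgene is not given in the sources used here. The acinar marker list, 9 of 10 measured and 4 of these 9 on a plateau as defined below, averaged 14.7 to 15.4 on control and 14.6 to 15.1 on HuR arrays, so the labelled tissue showed its enzyme genes. In bulk tissue, fewer cells of a type and less RNA per cell cannot be told apart.

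No ribosomal protein gene differed between the groups beyond the spread of the arrays by the test used. None of the 45 members passed an adjusted p under 0.05 in limma, as none of 30145 genes did (0.00% called). None reached an unadjusted p under 0.05 either, against 5.50% of all genes, of which 2.87% were higher and 2.63% lower in HuR. In an ordinary linear model, which leaves out limma's moderation, only Rps19 did (adjusted p = 0.912). With 1 array left out, Rps19 and Rpl39 did without HuR 4, Rps20 without control 3 or control 6 and Rpl7a without control 5, with limma adjusted p of 0.638 or above. In no member did the groups fail to overlap, against 0.166% of genes separated upward and 0.133% downward. Differences ran from -0.10 in Rpl10l to 0.20 in Rps3a3, which is 1.14-fold.

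Small differences pointed mostly one way. The HuR mean was higher in 36 of 45 members, lower in 7 and equal in 2, where 47.8% of all genes were higher and 51.6% lower. By subunit it was higher in 15 of 18 60S members, 13 of 15 40S members and 8 of 12 relatives. The median difference was 0.03 over the members and -0.0033 over all genes. With control 1 and control 2 left out, 21 members were higher and 17 lower, while 47.0% of all genes were higher. These arrays were chosen because they stood low in the members, so a smaller count follows from the choice. With all 12 arrays and a further quantile normalization, 20 members were higher and 23 lower, against 45.9% of all genes higher. With arrays centred on their median instead, 40 members were higher and 5 lower, against 55.2% of all genes higher. The count thus depended on the normalization. Leaving out control 2 and HuR 2, arrays that earlier results had shown to stand apart, gave 28 higher and 12 lower.

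**Figure D1:**
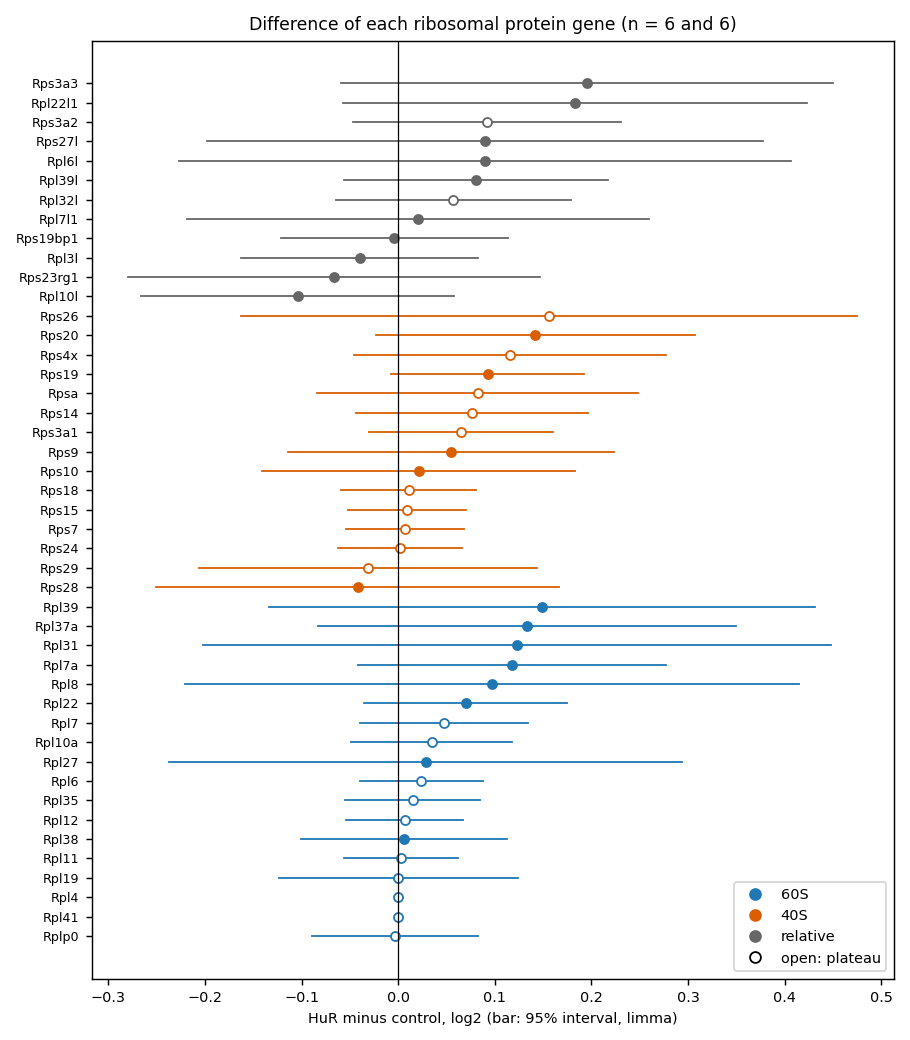
Difference of each of the 45 members, HuR minus control on the log2 scale, with the 95% interval from limma (n = 6 and 6). Colours give the subunit, open circles mark members with a plateau, and Rpl4 and Rpl41, equal on all 12 arrays, have no interval. Points run from -0.10 to 0.20, and all 43 intervals include 0.

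The 95% interval of limma included 0 in all 43 members that varied between arrays. Of the 23 members without a plateau, 15 differed by less than 0.1. Their intervals ran from -0.28 at the lowest, in Rps23rg1, to 0.45 at the highest, in Rps3a3. On the linear scale these bounds are a 1.21-fold lower and a 1.37-fold higher level. The highest bound of any member, 0.47 or 1.39-fold, belonged to Rps26. A p that misses the threshold does not show equality.

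Many members held repeated values. A plateau, meaning exactly the same value on 3 or more arrays, was found in 22 of the 45 members (48.9%), against 936 of 30145 genes (3.1%), and its cause was not tested. It was found in 20 of 33 canonical members and in 2 relatives, Rpl32l and Rps3a2. Rpl4 and Rpl41 stood at the end of the scale, 19.93, on 12 arrays and Rpl12 on 11, so no difference could appear in the first pair on these rows. The Rpl41 row on the gene's own chromosome held 8.21 on 7 arrays and differed by -0.01. Rpl4 extends to the peptide exit tunnel, and Rpl41 is the smallest ribosomal protein.

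Other plateaus lay below the end of the scale, that of Rpl35 close to it and many far below. Rpl11 held 6.67 and Rps7 held 18.18 on 11 arrays. On 10 arrays Rpl35 held 19.81, Rps15 held 9.68 and Rps3a2 held 18.11. On 9 arrays Rpl19 held 12.33 and Rpl7 held 9.05. Members with the same value on 8 arrays were Rpl10a (9.21), Rpl6 (7.55), Rpl32l (16.07), Rps18 (6.96), Rps24 (8.34) and Rps3a1 (16.60). Shorter plateaus were those of Rplp0 (12.95) and Rps4x (11.97) on 5 arrays, Rpsa (12.26) on 4, and Rps14 (6.77), Rps26 (15.96) and Rps29 (12.97) on 3. Of the 22 plateaus, 8 lay below 10. The lowest, 6.67, was above the median row level of 4.52 and the highest background row mean of 6.01. How often plateaus occur at each level was not computed.

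Where arrays left the plateau, they left it downward mostly in 2 controls. Of the 22 members, 13 lay below their plateau on control 1 and 18 on control 2, against 6 on control 4 and 0 to 4 on each of the other 9 arrays. No member lay above its plateau on control 1, 2 or 4, while 3 to 6 did on each other array. The median difference was 0.01 in these members, against 0.08 in the 23 members without a plateau.

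**Figure D2:**
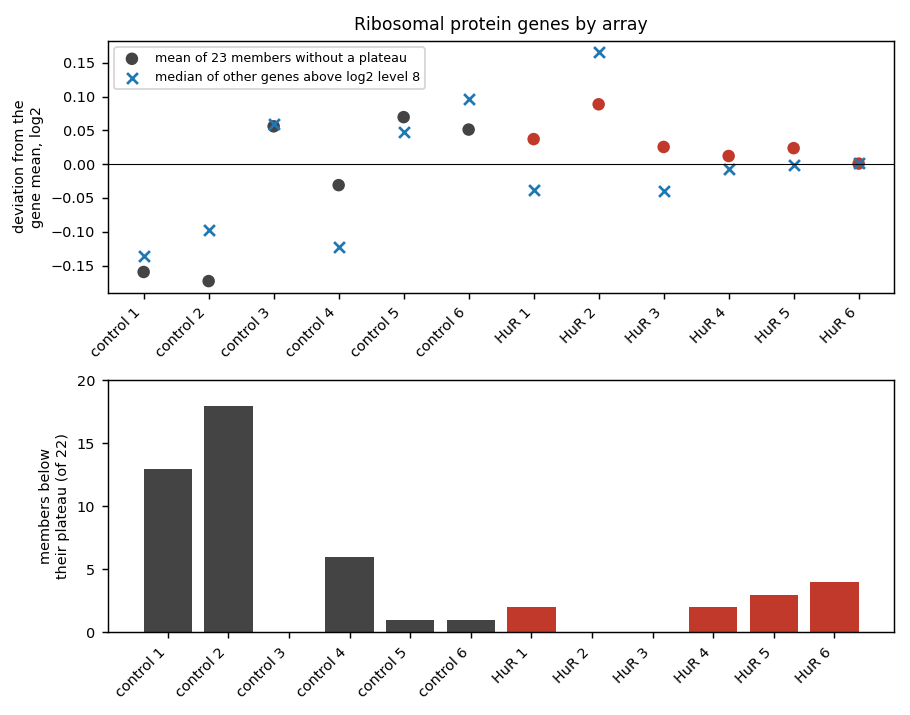
Upper plot, for each array, the mean deviation of the 23 members without a plateau from their own means over 12 arrays (circles, log2; grey control, red HuR) and the median deviation of 3448 other genes above log2 level 8 without a plateau (crosses). Lower plot, the number of the 22 plateau members below their plateau on each array. Control 1 and control 2 stand lowest among circles, at -0.16 and -0.17, and highest among bars, at 13 and 18.

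The 23 members without a plateau showed the same 2 arrays. Their mean deviation from their own level over 12 arrays was -0.16 on control 1 and -0.17 on control 2. It was -0.03 on control 4 and between 0.05 and 0.07 on the other 3 controls. The HuR arrays lay between 0.00080 and 0.09, all above these 3 low controls. The lowest value of a member fell on control 1 in 9 and on control 2 in 7 of the 23 genes. The SD of the array means was 0.11 in control and 0.03 in HuR, and the control SD exceeded the HuR SD in 17 of 23 members.

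These arrays were also low in other genes. Among 3448 other genes above log2 level 8 without a plateau, 75.4% lay below their own mean on control 1, 65.3% on control 2 and 71.6% on control 4, against 29.6% to 37.5% on controls 3, 5 and 6. The HuR arrays ran from 30.02% on HuR 2 to 60.5% on HuR 3 and 60.8% on HuR 1, and the members stood at 0.03 and 0.04 above their means on the latter 2. Control 4 was thus low in other genes but near the mean in the ribosomal protein members. The level 8 is a choice made here to set the members beside genes well above background. The part of an array-wide shift in the members' values was not tested.

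The 2 low controls ran apart in some marker lists of other cell types and together in the islet list. The 8 macrophage genes averaged 7.15 on control 1, the lowest of all arrays, and 8.83 on control 2, the highest control. They spanned 7.15 to 8.83 in control and 7.74 to 10.1 in HuR arrays, and 8 of 8 had a higher HuR mean. The B and plasma cell list, 7 of 8 measured, stood at 6.44 on control 1 and 8.87 on control 2, within 6.44 to 8.87 in control and 6.78 to 8.90 in HuR arrays. The islet list, 9 of 10 measured and 3 on a plateau, stood at 10.92 on control 1 and 11.64 on control 2. These were the 2 highest of all arrays, as the others ran from 9.91 to 10.85. The list spanned 9.98 to 11.6 in control and 9.91 to 10.8 in HuR arrays, and 9 of 9 had a lower HuR mean. Without control 1 and 2, 8 were lower and 1 higher. Slc2a2, with the largest difference of the list, stood at -0.94, and at -0.36 without these 2 arrays. The acinar list, with levels given above, had 5 of 5 varying genes lower in HuR, among them Bhlha15 at -0.64 (SE 0.26; limma adjusted p = 0.896). The T and NK cell list, 7 of 8 measured, stood at 4.48 on control 1 and 4.57 on control 2. It spanned 4.40 to 4.57 in control and 4.52 to 4.97 in HuR arrays, within the 3.11 to 6.01 of background row means. It had 6 of 7 genes higher, 4 of them at an unadjusted limma p under 0.05, against 2.87% of all genes. The adipocyte list, 7 of 8 measured, spanned 6.42 to 8.83 in control and 7.06 to 10.4 in HuR arrays, with all 7 higher in HuR. An unadjusted limma p under 0.05 was also reached by 3 adipocyte, 2 macrophage and 1 B and plasma cell genes, all higher. It was reached by 1 islet and 1 acinar gene, both lower, against 2.63% of all genes. No gene of these lists passed the adjusted limma test, none is at 0 on this log2 scale, and their part in the ribosomal protein values was not tested.

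**Figure D3:**
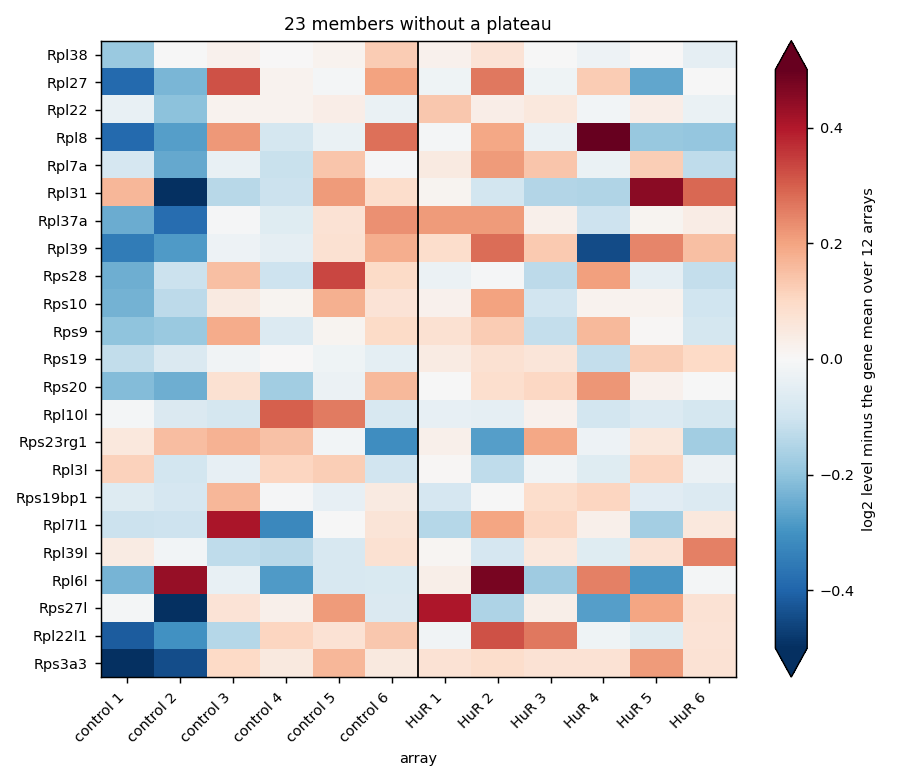
Log2 level of each of the 23 members without a plateau minus its mean over 12 arrays (colour scale from -0.5 to 0.5, with arrows for values beyond it), with controls left and HuR arrays right of the line. The columns of control 1 and control 2 are mostly blue, with 19 and 21 of 23 members below their own mean.

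Among 60S proteins, Rplp0 was the only stalk member, and it held the same value on 5 arrays. Rplp0, the scaffold on which the stalk recruits translation factors, lay at 12.82, 12.95 and 13.02 (lowest, median and highest) in control and at 12.88, 12.95 and 12.96 in HuR arrays. The HuR values fell within the control range, with a difference of -0.0033 (SE 0.04). Rpl11, which can bind Mdm2 and so stabilise p53 when ribosome assembly fails, held 6.67 on all arrays but control 2, at 6.66. Its difference was 0.0030, and its values could differ only through that array.

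Rpl22, an RNA-binding protein of the 60S subunit, lay at 7.36, 7.55 and 7.60 in control and at 7.53, 7.60 and 7.70 in HuR arrays. Control 2 was the lowest array, and 4 of 6 HuR arrays lay above every control, yet the groups overlapped. The difference was 0.07 (SE 0.05; limma adjusted p = 0.920), and 0.03 without control 1 and 2.

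Rpl39, a small protein that lines the exit tunnel, had the largest difference of the 60S members. It lay at 11.372, 11.686 and 11.904 in control and at 11.275, 11.863 and 12.002 in HuR arrays, and HuR 4 was the lowest of all 12. The difference was 0.15 (SE 0.13; limma adjusted p = 0.942), 0.25 without HuR 4 (adjusted p = 0.714) and 0.03 without control 1 and 2. Without control 1 alone it was 0.09.

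The other 60S members without a plateau all had a higher HuR mean, by 0.01 in Rpl38 to 0.13 in Rpl37a. Without control 1 and 2, Rpl27 stood at -0.12, Rpl8 at -0.04 and Rpl38 at -0.04, and Rpl37a at 0.0084. Rpl7a lay at 12.17, 12.37 and 12.57 in control and at 12.30, 12.51 and 12.64 in HuR arrays, with 1 HuR array above every control. Its difference of 0.12 (SE 0.07; limma adjusted p = 0.911) came from a row on another chromosome, and the row on the gene's own chromosome held 12.35 on 7 arrays and differed by 0.06. Rpl31, which lies at the tunnel exit, differed by 0.12 (SE 0.15), and its control 2 value of 6.72 was the lowest of the 12. Rpl8, which lies near the peptidyl transferase centre, differed by 0.10 (SE 0.15), with control 1 lowest at 12.96 and HuR 4 highest at 13.87. For Rpl27 the row used and that on its own chromosome both differed by 0.03.

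Among 40S proteins, Rps19 had the smallest p. This protein is needed for maturation of the small subunit and is mutated in Diamond-Blackfan anaemia. It lay at 7.08, 7.17 and 7.21 in control and at 7.09, 7.27 and 7.33 in HuR arrays. Of the HuR arrays 5 lay above every control, while HuR 4, at 7.09, lay beside the lowest control. The difference was 0.09 (SE 0.05; limma p = 0.0657, adjusted p = 0.907; exact permutation p = 0.0498), a 1.07-fold higher level. Without HuR 4 it was 0.13 (limma adjusted p = 0.638), and without control 1 and 2 it was 0.07.

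**Figure D4:**
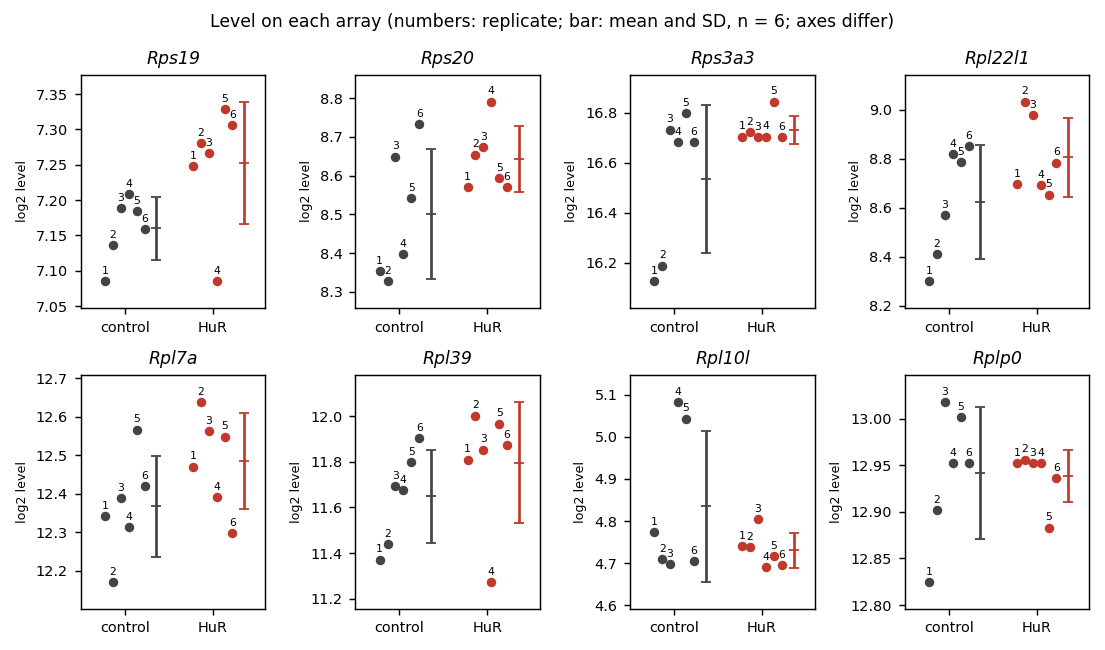
Log2 level of 8 members on each array, with the replicate number at each point, the mean and the SD (n = 6 per group); the vertical axes differ between genes and do not start at 0. In Rps19, 5 of 6 HuR arrays lie above every control, and in Rps3a3 and Rpl22l1 control 1 and control 2 are the lowest arrays.

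Rps20, a protein of the head of the small subunit, lay at 8.33, 8.47 and 8.73 in control and at 8.57, 8.62 and 8.79 in HuR arrays. Controls 1, 2, 4 and 5 lay below every HuR array, while controls 3 and 6 lay among them. The difference was 0.14 (SE 0.08; limma adjusted p = 0.907), and 0.06 without control 1 and 2. Rps20 was chosen after its values were seen, as were Rpl7a, Rpl8, Rpl27, Rpl31, Rpl37a and Rpl38.

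Rps26, which lies at the exit of the messenger RNA, had the largest 40S difference, 0.16 (SE 0.15). It lay at 15.47, 15.93 and 16.29 in control and at 15.90, 15.96 and 16.57 in HuR arrays, with HuR 2 highest and control 1 lowest. The difference was 0.05 without HuR 2 and 0.07 without control 1, so each of these arrays alone moved it by more than 1.5 times. It was also 0.05 without control 1 and 2 and 0.07 with array weights. Another row of the same symbol, on chromosome 8, differed by 0.16, and a row on chromosome 12 lay near background, at 3.95 in control and 3.87 in HuR samples.

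Rpsa, the 40S protein also known as the laminin receptor precursor, lay at 11.86, 12.26 and 12.37 in control and at 12.22, 12.26 and 12.35 in HuR arrays. Its difference was 0.08 (SE 0.08), and it turned to -0.02 without control 1 and 2, whose values of 12.12 and 11.86 were the lowest. Rps28, a small protein near the messenger RNA exit, stood at -0.04 (SE 0.10), at -0.14 without control 1 and 2 and at 0.02 without control 5. It lay at 6.19, 6.43 and 6.77 in control and at 6.31, 6.40 and 6.64 in HuR arrays, so the HuR range lay within that of control. Rps29, a zinc-binding protein, was the other 40S member with a lower mean, at -0.03.

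The members whose start carries the C and pyrimidine run shown above differed by 0.01 in Rpl35, Rpl38 and Rps18, 0.02 in Rps10 and 0.06 in Rpl32l, and 3 of the 5 had a plateau. The Rpl35 value came from a row on another chromosome than the start shown, and the row on the gene's own chromosome held 14.46 on all 12 arrays. Of the 3 members with CCGGAAG in the window shown, Rpl31 differed by 0.12, Rps3a1 by 0.07 and Rpl11 by 0.0030. No test was made of these groups.

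The relatives held both ends of the range of differences. Rps3a3, which RefSeq lists as a pseudogene, as it does Rps3a2 and Rpl6l, lay at 16.13, 16.68 and 16.80 in control and at 16.70, 16.70 and 16.84 in HuR arrays. Only control 1 and control 2, at 16.13 and 16.19, lay far from the rest. The difference of 0.20 (SE 0.12; limma adjusted p = 0.911) was 0.0065 without these 2 arrays. Rps3a2 showed the same 2 arrays below its plateau, at 17.75 and 17.93, and the protein-coding 40S gene Rps3a1 had them lowest too, at 16.46 and 16.42.

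Rpl22l1, a paralog of Rpl22 that takes its place in part of the ribosomes, lay at 8.30, 8.68 and 8.85 in control and at 8.65, 8.74 and 9.03 in HuR arrays. HuR 2 and HuR 3 lay above every control, and control 1 and 2 were the lowest arrays. The difference was 0.18 (SE 0.11; limma adjusted p = 0.911), and 0.05 without control 1 and 2. Rps27l, a p53-responsive paralog of Rps27, differed by 0.09 (SE 0.13), with control 2 lowest at 10.88 and HuR 1 highest at 11.78, and by -0.01 without control 1 and 2. Rpl6l differed by 0.09 (SE 0.15), with control 2 and HuR 2 the 2 highest arrays at 12.67 and 12.70. Its difference was 0.0042 without HuR 2, 0.19 without control 2 and 0.10 without both.

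Paralogs known from other tissues stayed near background. Rpl10l, which stands in for Rpl10 in male germ cells, lay at 4.70, 4.74 and 5.08 in control and at 4.69, 4.73 and 4.80 in HuR arrays. Its difference of -0.10 (SE 0.07; limma adjusted p = 0.924) came from control 4 and control 5, at 5.08 and 5.04, with the other 10 arrays between 4.69 and 4.80. Rpl3l, the paralog of heart and skeletal muscle, lay at 3.80, 3.93 and 4.02 in control and at 3.77, 3.87 and 4.00 in HuR arrays, with a difference of -0.04 (SE 0.06). Rpl39l, a testis-enriched paralog of Rpl39, lay at 4.09, 4.18 and 4.30 in control and at 4.14, 4.26 and 4.48 in HuR arrays, with a difference of 0.08 (SE 0.06). Row means of the background probes ran from 3.11 to 6.01, and these 3 genes lay within that span.

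The remaining relatives had intervals on both sides of 0. Rpl7l1, a factor of large subunit assembly, differed by 0.02 (SE 0.11; interval from -0.22 to 0.26) and Rps19bp1, a partner of Rps19 and of the deacetylase Sirt1, by -0.0039 (SE 0.05). Rps23rg1, a retrocopy of Rps23, differed by -0.07 (SE 0.10; interval from -0.28 to 0.15), with control 6 and HuR 2 the lowest arrays at 6.85 and 6.89. Rpl32l differed by 0.06 (SE 0.06), and its HuR arrays all held the plateau.

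Genes that work with the ribosome were set beside the members. Fau, a 40S protein that the name rule does not find, differed by 0.08 (SE 0.14), and by -0.05 without control 1 and 2. Of 20 translation factors, most with TOP messages, 19 were measured, 14 with a higher and 3 with a lower HuR mean, and none passed the adjusted limma test. Without control 1 and 2, 7 were higher and 10 lower, and after a further quantile normalization 9 were higher and 9 lower. Their smallest p was that of Eif3e, a subunit of the initiation factor that binds the 40S subunit. Eif3e stood at 10.55 ± 0.35 (SD, n = 6) in control and 10.94 ± 0.15 (SD, n = 6) in HuR samples, a difference of 0.39 (SE 0.15; limma adjusted p = 0.878), or 0.17 without control 1 and 2. The list averaged 11.93 on control 1 and 11.97 on control 2, below the 12.10 to 12.49 of the other 10 arrays, as in the members.

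Factors that build the ribosome did not share this low pair. Of 30 ribosome biogenesis genes 28 were measured, 20 with a higher and 8 with a lower HuR mean (14 and 14 after a further quantile normalization), and control 1 and 2, at 7.28 and 7.21, lay within the 7.16 to 7.38 of the other arrays. Nop58, a core protein of the small nucleolar particles that guide methylation of ribosomal RNA, differed by 0.61 (SE 0.20; limma adjusted p = 0.878), with 5 of 6 HuR arrays above every control. Among 18 measured regulators of 21, which include Myc and the mTOR pathway, 6 had a higher and 12 a lower HuR mean. Regulators did share the low pair, with averages of 8.86 on control 1 and 8.76 on control 2, below the 8.88 to 9.13 of the other arrays. The kinase gene Akt1 had their smallest p, with a difference of -0.25 (SE 0.09; limma adjusted p = 0.878).

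The proteins of the mitochondrial ribosome, a separate particle, went in both directions. Of 75 genes 36 had a higher and 39 a lower HuR mean, with a median difference of -0.0015, and at an unadjusted limma p under 0.05 were 2 higher and 2 lower genes, against 2.87% and 2.63% of all genes. Without control 1 and 2, 27 were higher and 48 lower, and after a further quantile normalization 16 and 59. The list averaged 6.564 on control 1 and 6.519 on control 2, below the 6.567 to 6.702 of the other arrays. Mrps10 had the smallest p, with 6.53 ± 0.10 (SD, n = 6) in control and 6.66 ± 0.03 (SD, n = 6) in HuR samples. All 6 HuR arrays lay above every control, with a difference of 0.13 (SE 0.05; limma adjusted p = 0.878; exact permutation p = 0.00216, the smallest that 924 assignments allow).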

How the data were processed

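RNA of 12 mouse pancreas samples was labelled as biotin cDNA with the WT PLUS kit and hybridised to 1 Affymetrix array each, per the labels' protocols. The deposited values are log2 expression levels from RMA, per the labels, and Affymetrix Expression Console (version 1.4) is listed beside Transcriptome Analysis Console (version 3.1) per the submitters' processing notes. For their settings, not given in the sources used here, nothing was assumed. Of 72688 rows, 6732 control rows were left out. Platform annotation gave 30607 rows 1 distinct symbol, 2143 several and 33206 none, and RefSeq names of GRCm38.p6 updated symbols. The highest-mean row stood for each of 30145 genes.

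The groups were compared on all genes with limma 3.58.1 (lmFit, eBayes) in R 4.3.3, with data.table (version 1.17.8) for reading, two-sided, with Benjamini-Hochberg adjustment over all genes and a threshold of 0.05. Exact permutation tests were two-sided over 924 assignments. On simulated data for HuR minus control over 30145 genes, 60% of genes changed by log2 0.5, 94% at 1 and 100% at 2 and 4 were recovered. Each size had 50 changed genes, and 6 of 183 calls were false. These rates hold for the simulated data only. Recovery of changes below 0.5 was not tested, and all member differences, from -0.10 to 0.20, were smaller than that. On the measured arrays no gene passed, not even Car3 at a difference of 2.64 (SE 1.02; limma adjusted p = 0.878).

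Members and lists were chosen with earlier results of these data known. Genes named were Elavl1, the 4 highest and the 4 lowest differences among members, all relatives, members kept for their role (Rpsa, Rplp0, Rpl11, Rps19, Rpl22 and Rpl39 of those found), members with a plateau, and the smallest p of each pathway list. Others were chosen after their values were seen. Alternatives were the replicate block, other normalizations, filters, rows and variance settings, and arrays left out. Array depth cannot be stated.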

Additional observations from a re-analysis of the deposited data

Results flagged for a closer look

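In 48 groups of 6 arrays, covering both groups of the members without a plateau and of Elavl1, 6 held an array far from the other 5 by Dixon's criterion, where chance gives about 5%. HuR 4 was such an array in 3 genes: it was lowest in Rpl39 (11.275, next 11.809) and Rps19 (7.086, next 7.248) and highest in Rps28 (6.642, next 6.431). Control 2 was the lowest control in Rpl22 (7.36, next 7.526) and the highest in Rpl6l (12.668, next 12.194). HuR 5 was the highest HuR array in Rps3a3 (16.844, next 16.721).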

How the results depend on the processing

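No member and no gene passed the adjusted threshold under any of the 12 settings with 1 array left out or the 11 others. These others were 10 for Rpl3l and Rpl39l, which the filter left out. Nor did any pass at a threshold of 0.1 in the main comparison. Among the 21 genes followed singly, as given below, the lowest limma adjusted p was 0.525 (Elavl1). The 36 members with a higher HuR mean were 21 without control 1 and 2, 20 after a further quantile normalization, 18 of the 23 without a plateau and 11 of these 23 without control 1 and 2, and 29 to 39 with 1 array left out. They were 40 with arrays centred on their median and 30 with array weights. With the replicate number as a block, 0 genes were called and 36 members were higher. At an unadjusted limma p under 0.05 were 2270 genes with the block, against 1657 without it. The correlations of same-numbered deviations were -0.057, 0.636, 0.0785, 0.164, 0.177 and -0.0786. Differently numbered arrays were not set beside them, so they do not settle whether the numbers pair the samples. Settings with control 1 and 2 left out, or with the row on the gene's own chromosome, were chosen after seeing the data. Of 21 named genes, 12 did not reverse under any of these. Without control 1 and 2, Rpl7l1 turned to -0.027, Rps27l to -0.0142 and Rpsa to -0.0203. In all, 10 of 45 members turned lower there and 5 became equal; the other 7 that turned were Rpl27 at -0.12, Rps10 at -0.07, Rpl19 at -0.05, Rpl8 and Rpl38 at -0.04, Rps9 at -0.03 and Rpl35 at -0.0033. Without control 2 and HuR 2, Rps23rg1 turned to 0.0059 and Rpl7l1 to -0.0351. After quantile normalization, Rpl32l turned to -0.0098, Rpl7l1 to -0.0226 and Rpl11 to -0.0488. Centring arrays on their median turned Rps19bp1 to 0.0097 and Rplp0 to 0.0102, and array weights turned Rpl7l1 to -0.0431. With 1 array left out, Rps28 ran from -0.0952 to 0.0209, Rpl7l1 from -0.0416 to 0.1044, Rps19bp1 from -0.0259 to 0.0287, Rps27l from -0.0003 to 0.1541 and Rplp0 from -0.0266 to 0.0118. The cause of these turns was not tested. Repeated values may limit the differences of 22 members, and 3 paralogs lay near background.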

Other observations

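The ribosomal protein pseudogenes marked -ps, which the member rule leaves out, were looked at after the members' values were seen. Of 206 such genes 89 had a plateau, 162 had a higher and 29 a lower HuR mean, and the median difference was 0.06. At an unadjusted limma p under 0.05 were 20 higher and 0 lower pseudogenes, against 2.87% and 2.63% of all genes, and none passed the adjusted threshold. Without control 1 and 2, 111 were higher and 70 lower, 8 higher and 1 lower had an unadjusted limma p under 0.05, and the median difference was 0.01. After a further quantile normalization 114 of 206 were higher. Probes of these rows and of the members can share sequence, so they are no separate measurement.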
